A study of Mus musculus with 2 samples.

Results

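Dntt encodes terminal deoxynucleotidyl transferase, and its locus was described here from DNase I hypersensitivity maps (DNase-seq) of thymus. The gene (ENSMUSG00000025014, chr19:41029275-41059525 on mm10, plus strand) has 12 exons in its reference transcript Dntt-201. Members were the peaks, footprints and bases of low false discovery rate that lay in the gene body or within 50 kb of it on either side, a window of 130251 bp. That window held 38 of the 127552 peaks of replicate 1 and 31 of the 67270 peaks of replicate 2. The tissue was whole thymus of 2 female B6CASTF1/J mice aged 25 days, F1 hybrids that carry a C57BL/6J and a CAST genome copy. The labels give the libraries separate biosamples, numbered as different females, under a shared donor entry, and they are taken here as 2 animals. Each gave 1 library, both libraries formed 1 group, and the labels name no treatment, transgene or pooling. With no second group there was no contrast to test, so all values below are descriptions of 2 libraries.

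Terminal transferase is a family X DNA polymerase that adds nucleotides without a template. It acts on the opened ends of V, D and J segments while antigen receptor genes are joined, and the bases it adds widen the range of T cell and B cell receptors. The gene is active in immature thymocytes and B cell precursors and is a classical marker of these cells. Its promoter is a textbook example of transcription that starts at an initiator element without a TATA box. DNase I cuts accessible chromatin, so a peak marks open regulatory DNA, and a footprint is a short stretch inside it that was cut less than its surroundings.

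The tissue label was checked on marker genes. A peak lay within 1 kb of the start of all 10 thymocyte markers in both libraries, where the share over all 21938 protein-coding genes was 61.7% (replicate 1) and 55.1% (replicate 2). For B cell markers this held for 4 of 7 genes in replicate 1 and 2 of 7 in replicate 2. Cd79a and Pax5 were among those without such a peak in either library, while Ebf1 had one of density 11.8 and 4.56. Thymic epithelium markers had one at 3 of 5 genes in replicate 1 and 2 of 5 in replicate 2, with none at Foxn1 or Psmb11 and peaks in both libraries at Aire (9.54 and 4.24) and Epcam (0.815 and 0.792). Myeloid and dendritic markers had one at 3 of 6 genes in both, with none at Csf1r and low peaks at Itgam, Lyz2 and Flt3 (0.397 to 2.21 in replicate 1). In bulk tissue, more open chromatin per cell and more cells with open chromatin cannot be told apart.

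The Dntt window was densely covered with open sites. It held 34.5 ± 4.95 peaks (SD, n = 2), where the median gene had 12 peaks in replicate 1 and 6 in replicate 2 over its own body and 50 kb flanks. Dntt exceeded 96% of genes in replicate 1 and 98.7% in replicate 2. Such coverage was not particular to Dntt among thymocyte genes. The 10 thymocyte markers had medians of 66.5 and 30 peaks, and only 2 of them in replicate 1 and 5 in replicate 2 had fewer than Dntt. Bases with a deposited false discovery rate below 0.05 made up 11.9% of the window in replicate 1 and 9.16% in replicate 2, against 1.7% and 0.88% of the autosomes and X chromosome. Footprints in the window numbered 115 in replicate 1 and 89 in replicate 2, with a median width of 9 bp in both. The peaks themselves were of moderate height. Their median density, the authors' signal value per peak in a scaling that is not stated, was 1.32 in replicate 1 and 0.906 in replicate 2, beside 0.825 and 0.93 over the whole lists.

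Merging the peaks of both libraries gave 46 sites, which are named below by the distance of their midpoint from the annotated start. Of these, 23 were peaks in both libraries, 15 in replicate 1 alone and 8 in replicate 2 alone. The shared sites were 60.5% of the window's peaks in replicate 1, where 46.9% of all peaks overlapped a peak of the other library. In replicate 2 they were 74.2% of the window's peaks, below the 88.8% over the whole list. Of the shared sites, 13 lay upstream of the gene, 1 at the promoter, 6 in introns and 3 downstream. Most sites clustered around the 5 prime end of the gene. The 15 kb before the start held 21 peaks in replicate 1 and 12 in replicate 2, while the stretch from 50 to 15 kb before it held 3 and 1.

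**Figure D1:**
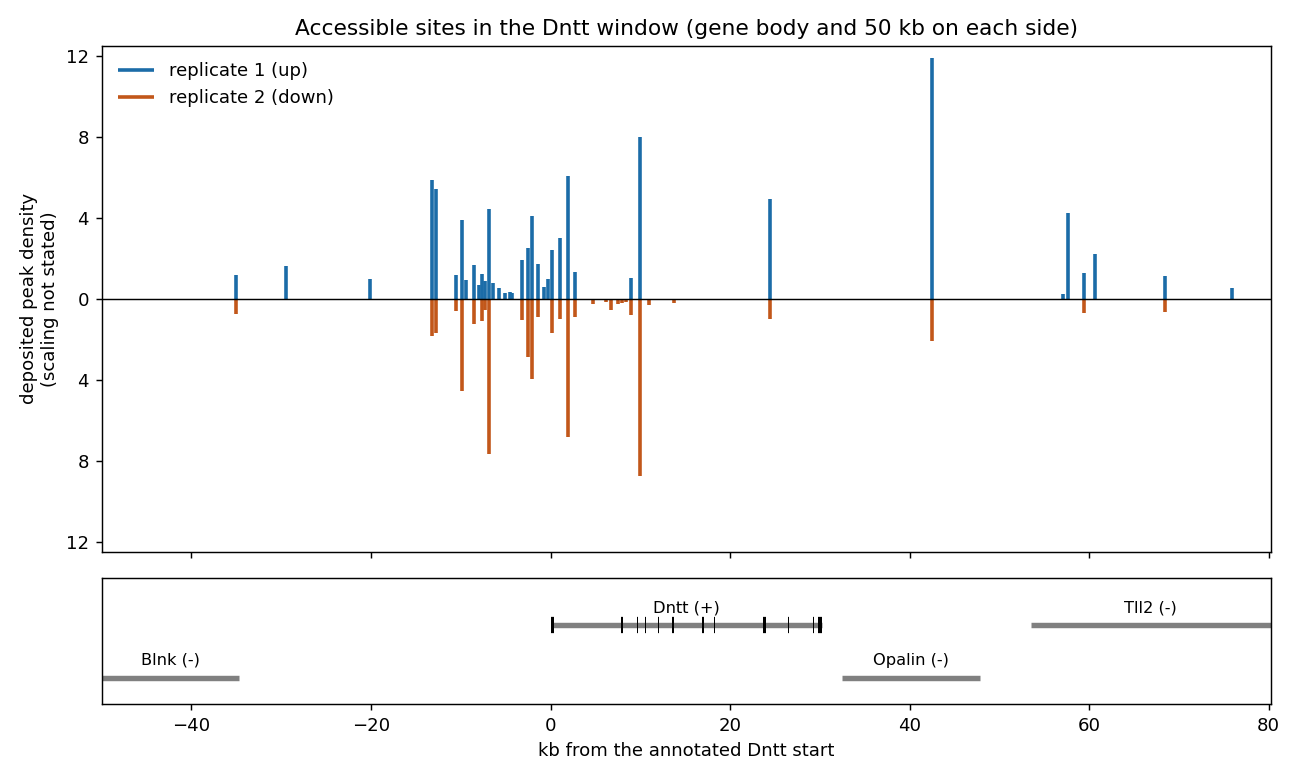
Deposited peak density of each site (vertical axis, scaling not stated) against kb from the Dntt start, with replicate 1 drawn upward, replicate 2 downward and gene bodies below (black ticks are Dntt exons). Sites crowd between -13.2 and +11 kb, and the highest bars stand at +42.5 kb in replicate 1 (11.9) and at +10 kb in replicate 2 (8.73).

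The promoter peak was open in both animals but low for a promoter. It covered chr19:41029281-41029540 within exon 1, with a density of 2.41 in replicate 1 and 1.7 in replicate 2 (2.05 as the mean). These values stood at the 75.7th and 67.4th percentile of the peak lists. The densest peak touching the 1 kb on either side of the start reached 3 in replicate 1, where it was the intronic +1.08 kb site, and 1.7 in replicate 2. The median over genes with such a peak was 9.43 and 5.56, and only 27.4% and 21.8% of those genes were below Dntt. In replicate 1, 2 further weak peaks lay before the start, at -0.715 kb (0.582) and -0.245 kb (0.963), and neither was a peak in replicate 2.

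The strongest signal did not sit on the annotated start but about 0.1 kb inside the gene. The lowest false discovery rate of the promoter peak fell 115 bp after the start of Dntt-201 in replicate 1, at -log10 43.2, and 94 bp after it in replicate 2, at -log10 12.4. In replicate 1 the values formed a plateau that reached past these places into the gene. Both places lie close to the starts of the shorter transcripts Dntt-202 and Dntt-203, at 0.107 and 0.11 kb. A match to the initiator letters CTCANTCT lay there on the plus strand, at chr19:41029385-41029392, so its first base was the annotated first base of Dntt-203. The start codon follows at 164 bp. The match is shown with its flanks because the lowest false discovery rates lay near it, and capitals mark the match:

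initiator, chr19:41029374-41029403, plus strand, mm10: acatcagagccCTCATTCTggagacaccac

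No footprint touched this match in either library. The nearest footprint began 7 bp after it in replicate 1, and in replicate 2 the nearest ended 90 bp before it. Replicate 1 had 6 footprints in the promoter peak and replicate 2 had 1, and none overlapped between the libraries. Over the whole lists, 35.7% of footprints in replicate 1 and 67.9% in replicate 2 overlapped one of the other library, so such small counts say little. A footprint of replicate 1 touched a match to the ETS letters CAGGAAGT at chr19:41029327-41029334, and another touched a match to the E-box CACCTG at chr19:41029401-41029406. Replicate 2 had no footprint on either match.

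**Figure D2:**
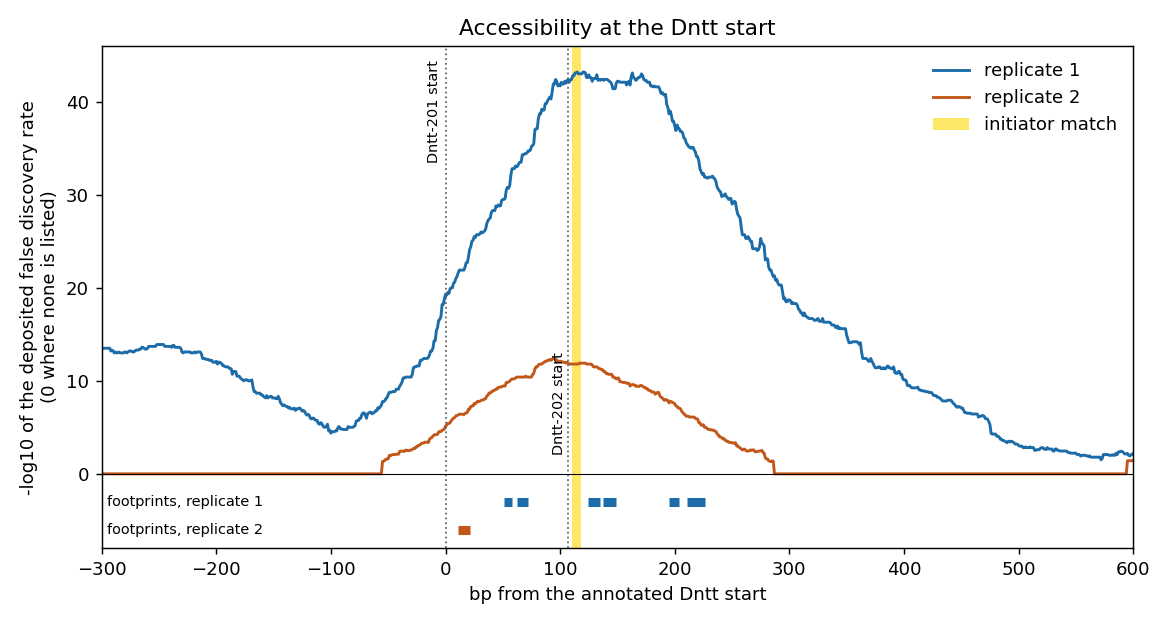
The -log10 of the deposited false discovery rate per base (0 where none is listed) against bp from the Dntt start, one line per library, with footprints as boxes below and the initiator match shaded. Both lines have their maximum near the initiator match, at 43.2 on a plateau in replicate 1 and 12.4 in replicate 2, and no footprint covers it.

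The sequence before the start was poor in CpG. The RefSeq promoter of Dntt on GRCm38.p6, 250 bases before to 50 after the start, had 42.3% G and C and 2 CpG dinucleotides, where the medians over 32851 promoters were 52.7% and 7. As few CpG were found in 23.3% of promoters. It held no TATAAA, which 13.6% of promoters contain on either strand, and no GGGCGG of the SP and KLF factors, which 35.7% contain. It held 1 CTCANTCT, on the minus strand 32 to 39 bp after the start, and 5.63% of promoters hold such a match. An absent match says only that these letters are not in this window. The window ends at chr19:41029324, before the plus-strand initiator match and the starts of Dntt-202 and Dntt-203. The bases directly before those starts lie outside it.

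Several sites outside the promoter were denser than the promoter itself in both animals. By mean rank over the libraries, the 5 densest lay at +10, +1.91, -6.88, -9.91 and -2.02 kb. The +10 kb site lies at chr19:41039201-41039400, between exons 3 and 4. Its density was 7.98 in replicate 1 and 8.73 in replicate 2, the 91.5th and 92.4th percentile of the lists. The +1.91 kb site, at chr19:41031041-41031320 between exons 1 and 2, had 6.05 and 6.83. The -6.88 kb site, at chr19:41022281-41022520, had 4.46 and 7.64. The -9.91 kb site had 3.92 and 4.53, and the -2.02 kb site had 4.08 and 3.98. The +10, +1.91, -6.88 and -9.91 kb sites were higher in replicate 2, and the -2.02 kb site was slightly higher in replicate 1.

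These densities were next compared with those of all peaks found in both libraries. Over 59715 overlapping peak pairs the density of replicate 1 divided by that of replicate 2 had a median of 1.59, and the central 95% of pairs ran from 0.659 to 7.82. Since the scaling of either library is not stated, a ratio is read here only against this distribution. The ratio was 0.914 at +10 kb, the 11.2th percentile, and 0.887 at +1.91 kb, the 9.95th percentile. At -6.88 kb it was 0.585, the 1.3th percentile and below the central 95%. The promoter, at 1.42, stood at the 41st percentile. Over the 23 shared sites the ratio ran from 0.585 to 5.67 with a median of 1.56, and 11 of 23 were above the genome median.

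**Figure D3:**
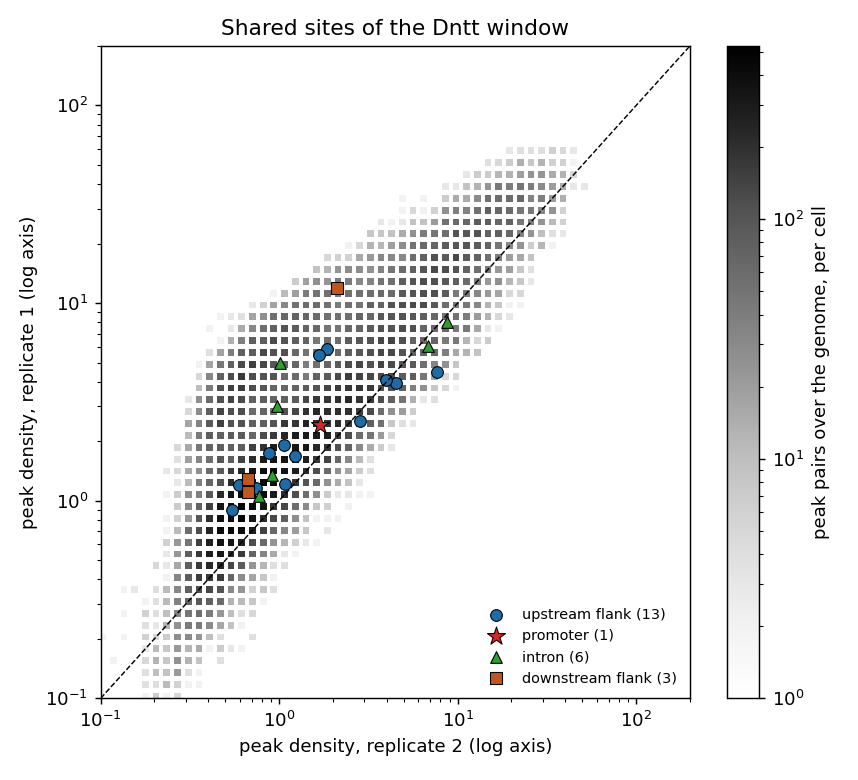
Peak density of replicate 1 against replicate 2 (both log axes) for the 23 shared sites by location, over a grey count of all overlapping peak pairs of the genome, with the dashed line marking equal density. The sites at +10, +1.91 and -6.88 kb lie on or below the dashed line, and the +42.5 kb site lies far above it at 11.9 against 2.1.

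Footprints at the 3 densest sites are shown in sequence, since these bases were protected in both animals. Of the other two of the 5 densest, the -2.02 kb site had 25 such bases. The -9.91 kb site had 2 footprints in replicate 1 and 4 in replicate 2, and no base lay in a footprint of both. The sequences are the C57BL/6J reference on the plus strand of mm10, and capitals mark bases inside a footprint of both libraries. The CAST alleles that each hybrid mouse also carries are not shown.

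-6.88 kb site, chr19:41022281-41022520: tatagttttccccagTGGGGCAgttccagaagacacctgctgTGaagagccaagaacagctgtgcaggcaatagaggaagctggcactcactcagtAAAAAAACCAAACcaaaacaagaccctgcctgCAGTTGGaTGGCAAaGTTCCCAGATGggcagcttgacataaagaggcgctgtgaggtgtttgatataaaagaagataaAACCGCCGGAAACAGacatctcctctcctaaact
+1.91 kb site, chr19:41031041-41031320: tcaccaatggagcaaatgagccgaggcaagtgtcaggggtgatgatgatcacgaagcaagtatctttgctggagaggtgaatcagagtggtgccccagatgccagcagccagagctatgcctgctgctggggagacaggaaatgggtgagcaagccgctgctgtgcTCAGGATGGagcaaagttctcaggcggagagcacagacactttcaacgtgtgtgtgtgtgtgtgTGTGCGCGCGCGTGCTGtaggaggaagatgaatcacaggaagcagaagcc
+10 kb site, chr19:41039201-41039400: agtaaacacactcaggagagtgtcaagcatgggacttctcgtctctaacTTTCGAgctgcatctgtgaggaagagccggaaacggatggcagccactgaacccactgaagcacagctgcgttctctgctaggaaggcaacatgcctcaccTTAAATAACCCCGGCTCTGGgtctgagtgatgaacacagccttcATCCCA

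The -6.88 kb site had the most footprints found in both animals of all 46 sites. It had 7 footprints in replicate 1 and 6 in replicate 2, and 6 of the 7 overlapped a footprint of the other library. Over the whole series 35.7% of footprints in replicate 1 and 67.9% in replicate 2 overlapped one of the other library, and in the window 38.3% and 51.7% did. Its capitals cover 61 bases, or 25.4% of the site. One of them, GTTCCCAGATG, holds the letters of Ikaros, a zinc finger regulator of lymphocyte development, as TGGGAA on the minus strand at chr19:41022425-41022430. At +10 kb there were 3 footprints in replicate 1 and 4 in replicate 2, with 32 bases in both. At +1.91 kb there were 6 and 2, with 26 bases in both, 9.29% of the site. One of the capital stretches there adjoins a run of TG repeats.

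Transcription factor motifs were searched on both strands in the central 200 bp of all 46 sites. RUNX letters (TGNGGT), bound by the RUNX factors of T cell development, occurred in 19 sites or 41.3%, beside 42.1% of all peaks in replicate 1 and 42.8% in replicate 2. The E-box letters of E proteins occurred in 14 sites as CACCTG (30.4%, beside 23.9% and 26.3% of all peaks) and in 11 as CAGCTG (23.9%, beside 16.9% and 19.6%). ETS letters (GGAAGT) occurred in 10 sites (21.7%, beside 20.1% and 23%), Ikaros letters (TGGGAA) in 9 (19.6%, beside 16.9% and 15.1%) and MYB letters (TAACNG) in 8 (17.4%, beside 17.4% and 16.3%). TCF and LEF letters (CTTTGA) occurred in 7 (15.2%, beside 13.1% and 12.8%) and GATA letters (AGATAA) in 4 (8.7%, beside 6.55% and 5.8%). GGGCGG was found in 1 site, or 2.17%, beside 17.9% and 24.8% of all peaks. Most of the 46 sites lie outside promoters, while the whole lists include promoter peaks, and 35.7% of promoters hold GGGCGG. The shares over all peaks were not matched for location. CAGGAAGT occurred in 1 site (2.17%, beside 5.51% and 6.63%), the initiator letters in 2 (4.35%, beside 4.17% and 4.12%) and TATAAA in 3 (6.52%, beside 5.67% and 4.17%).

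The matches were also set against the footprints, where 1 shared base counts as a touch. No share of touched matches over the whole peak lists is at hand, so these counts stand without a reference. Over the whole length of the sites, rather than their central 200 bp, there were 111 match positions, of which 28 were touched by a footprint in replicate 1, 17 in replicate 2 and 6 in both, each in its own site. Those were RUNX letters at -13.2 and -10.5 kb, CACCTG at -8.55 kb and at +42.5 kb, the Ikaros letters at -6.88 kb and CAGCTG at +24.4 kb. The CACCTG at +42.5 kb overlaps a match to AGGNGGCGC, core letters of the insulator protein CTCF that are taken up below. The -13.2 and +24.4 kb sites are shown for their RUNX and CAGCTG matches, picked after the values were seen, with capitals as before. The first holds the RUNX letters as ACCCCA, its minus-strand form, within its longest capital stretch, and the other holds CAGCTG.

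-13.2 kb site, chr19:41016021-41016220: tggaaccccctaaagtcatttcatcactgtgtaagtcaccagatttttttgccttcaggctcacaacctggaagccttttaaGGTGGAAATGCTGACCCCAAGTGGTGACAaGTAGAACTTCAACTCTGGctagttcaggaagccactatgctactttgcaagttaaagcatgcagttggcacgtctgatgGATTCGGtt
+24.4 kb site, chr19:41053601-41053800: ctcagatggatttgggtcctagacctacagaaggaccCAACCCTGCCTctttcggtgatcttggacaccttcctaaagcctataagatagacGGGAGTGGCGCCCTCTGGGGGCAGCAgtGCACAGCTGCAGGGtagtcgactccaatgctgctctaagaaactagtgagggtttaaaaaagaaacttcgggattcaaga

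The -13.2 kb site had a density of 5.88 in replicate 1 and 1.85 in replicate 2, and its neighbour at -12.8 kb had 5.45 and 1.68. Their ratios of 3.17 and 3.25 stood at the 82.9th and 83.4th percentile of genome pairs. The longest footprint of the -13.2 kb site spanned 50 bp in replicate 1, and replicate 2 had footprints of 29 and 18 bp in the same place. The +24.4 kb site, between exons 9 and 10, had 4.96 and 1.01, a ratio of 4.89 at the 89.8th percentile. All 3 ratios were above the genome median, unlike those at +10, +1.91 and -6.88 kb.

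Peaks were more numerous in replicate 2 in the introns (6 against 13) and in replicate 1 in the upstream flank (22 against 13). All 8 sites found in replicate 2 alone lay in one stretch of the gene, from +4.76 to +13.8 kb, with 7 in introns and 1 centred in exon 2. Between +4 and +15 kb replicate 1 had 2 peaks, 846 bases below a false discovery rate of 0.05 and 8 footprints. Replicate 2 had 10 peaks, 4770 such bases and 23 footprints there, although its whole peak list was the shorter. In the first 4 kb of the gene each library had 4 peaks, and the 15 kb upstream had 8643 such bases in replicate 1 and 4126 in replicate 2. The body as a whole had 7 peaks in replicate 1 and 15 in replicate 2.

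The 8 peaks had low densities but also low false discovery rates. Their densities ran from 0.15 to 0.546, between the 2.43th and 27.3th percentile of replicate 2. All 8 were also in the shorter deposited list of that library, which held 69.9% of all its peaks but only 27.8% of its peaks in the lowest 10% by density. Their -log10 lowest false discovery rates ran from 3.89 to 28.2. In replicate 1 the same sites had no base below 0.05 except 32 bases at +6.76 kb. The +6.19 and +8.38 kb sites lie mostly in repeat sequence (over 50% soft-masked). The +10 kb site amid them reached a -log10 false discovery rate of 637.4 in replicate 2 and 31.8 in replicate 1 at nearly equal densities. Whether sequencing depth or local background moved with this difference was not tested, as depth is not stated.

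**Figure D4:**
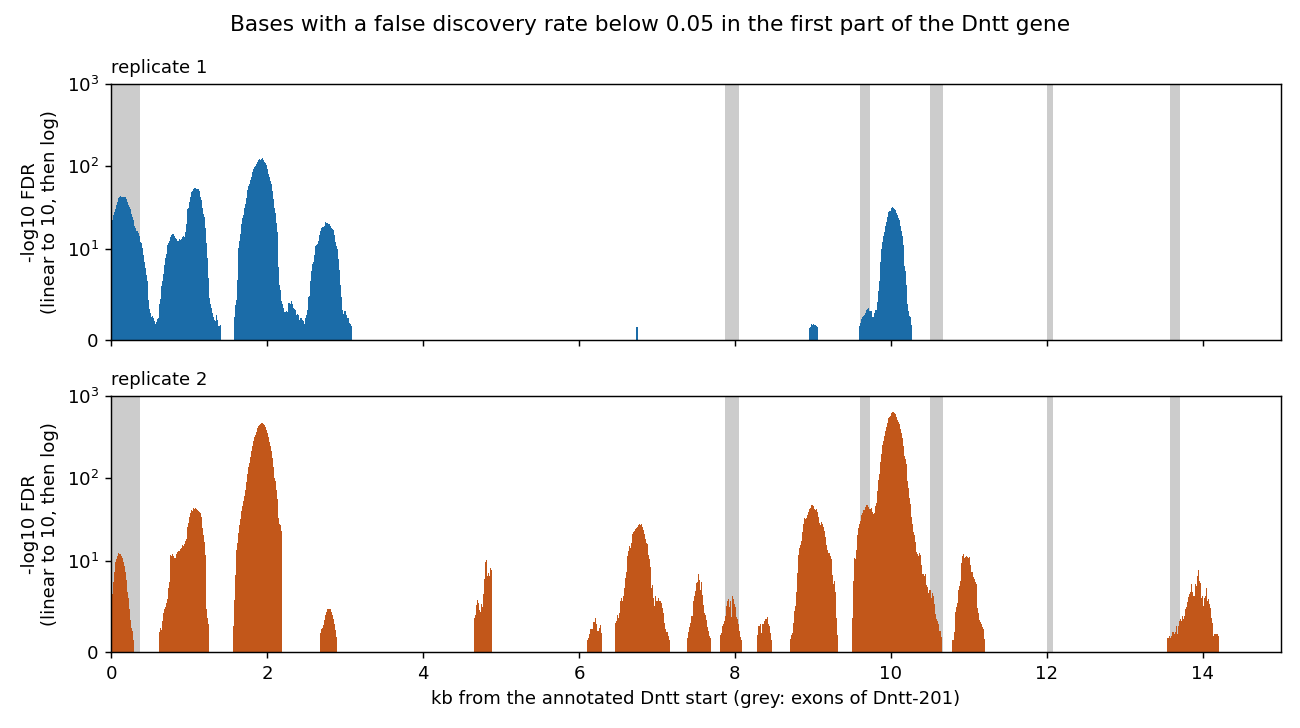
The -log10 of the deposited false discovery rate per base (linear to 10, then log) over the first 15 kb of Dntt, 1 panel per library, with exons in grey. Replicate 2 shows a row of low mounds from +4.76 to +13.8 kb around the tall +10 kb site, where replicate 1 shows almost none.

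The 15 sites found in replicate 1 alone lay elsewhere, 9 upstream of the gene, 2 at the promoter and 4 downstream. Their densities ran from 0.259 to 4.24 with a median of 0.666, and 9 of 15 were also in the shorter list of replicate 1, which held 69.7% of all its peaks. Of these, 2 had a base below a false discovery rate of 0.05 in replicate 2, 23 bases in all. The densest, at +57.6 kb (4.24) and +60.7 kb (2.21), lie in introns of Tll2, a tolloid-like metalloprotease gene. Both sites match the consensus of the insulator protein CTCF in every letter. They were the only sites of the 46 that did, where 5.46% of all peaks in replicate 1 and 4.25% in replicate 2 do. The +24.4 kb site misses this consensus by 1 letter, on the minus strand, within a capital stretch of its printed sequence. Near matches were not searched, so other sites may hold them too. Replicate 2 had no peak and no base below 0.05 at +57.6 or +60.7 kb.

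CTCF matches moved with the library over the whole genome as well. Of 6970 peaks of replicate 1 with a CTCF match, 42% had an overlapping peak in replicate 2, against 47.2% of peaks without a match. Among those with an overlapping peak, the median density ratio was 5.59 with a match and 1.53 without. At densities of at least 2.21, that of the +60.7 kb site, 80.6% of peaks with a match and 93.1% of those without had an overlapping peak in replicate 2. The part of this difference in the values at +57.6 and +60.7 kb was not tested.

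The densest peak of replicate 1 in the window lay in a neighbouring gene, and its ratio was the highest of the 23 shared sites. The +42.5 kb site, at chr19:41071661-41071820 in an intron of Opalin, a myelin gene of oligodendrocytes, had a density of 11.9 in replicate 1 and 2.1 in replicate 2. Its ratio of 5.67 stood at the 92.3th percentile of genome pairs, within the central 95%. Opalin had no promoter peak in either library, and of 5 other oligodendrocyte genes 2 had one in each, Mbp and Olig2. The site had 5 footprints in replicate 1 and 4 in replicate 2, and all 5 overlapped one of the other library. Its capitals, again bases in footprints of both libraries, cover 73 of 160 bases, 45.6%, the largest share among the sequences printed here.

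+42.5 kb site, chr19:41071661-41071820: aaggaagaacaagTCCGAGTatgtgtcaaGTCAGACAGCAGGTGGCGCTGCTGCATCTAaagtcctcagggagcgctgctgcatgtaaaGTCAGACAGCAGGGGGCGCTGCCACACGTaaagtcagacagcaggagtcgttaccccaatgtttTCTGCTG

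The site repeats a word of 15 bases 3 times, with its copies 60 and 32 bp apart. Each copy is shown with the bases after it, because the copies differ there, and capitals mark the shared word.

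copy 1, chr19:41071688-41071717: AAGTCAGACAGCAGGtggcgctgctgcatc
copy 2, chr19:41071748-41071777: AAGTCAGACAGCAGGgggcgctgccacacg
copy 3, chr19:41071780-41071809: AAGTCAGACAGCAGGagtcgttaccccaat

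Copies 1 and 2 share 25 of 30 bases, and copy 3 shares 22 with copy 1. Copies 1 and 2 continue into a match to the core letters of CTCF, AGGNGGCGC, and copy 3 does not. The core letters were chosen after the site was seen, and they occur in 3.91% of all peaks in replicate 1 and 4.01% in replicate 2. Copy 1 carried a footprint with the same bounds in both animals, chr19:41071690-41071719, which is 30 bp long. Copy 2 carried a footprint of 33 bp in replicate 1 and 29 bp in replicate 2 that began at the same base. Copy 3 was touched by 2 footprints in replicate 1 and by 0 in replicate 2. The first is the 33 bp footprint of copy 2, which reaches into copy 3. The second, chr19:41071800-41071841, begins after the shared word. Over the genome, peaks of replicate 1 with the core letters had an overlapping peak in replicate 2 in 54.5% of cases, against 46.6% without. Without a density floor this is the opposite order to that of the full CTCF consensus. At densities of at least 2.21 the order was the same as for the full consensus, at 87.7% with the core letters and 92.3% without. Among all peaks of replicate 1 with an overlapping peak, the median ratio was 3.4 with the core letters, against 1.55 without.

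The other neighbours were Blnk and Tll2. Blnk, which encodes an adaptor of B cell receptor signalling, starts at -34.7 kb on the opposite strand. Its promoter peak had a density of 1.16 in replicate 1 and 0.744 in replicate 2, the 59.8th and 41.1th percentile, with 3 footprints in each library. The next 2 sites toward Dntt, at -29.5 kb (1.62) and -20.1 kb (0.984), were peaks of replicate 1 alone. Tll2 held the 6 sites from +57.1 to +75.9 kb, including the denser +57.6 and +60.7 kb sites of replicate 1 described above. Of these, the sites at +59.4 kb (1.29 and 0.672) and +68.5 kb (1.11 and 0.666) were shared. The windows of Blnk and Opalin, which overlap that of Dntt and share peaks with it, held 38 and 37 peaks in replicate 1 and 31 and 30 in replicate 2.

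Most other genes that open, process and join V(D)J ends had a denser promoter peak and fewer sites than Dntt. So did most genes with a promoter peak. Of 15 such V(D)J genes, 14 had a promoter peak in each library, beside 61.7% and 55.1% of all genes. Xrcc6, a Ku subunit, had none within 1 kb of the annotated start used here, while its body and flanks held 30 and 18 peaks. The median number of peaks in the body and 50 kb flanks of the 15 genes was 16 in replicate 1 and 8 in replicate 2. Over all genes it was 12 and 6. Dntt had more peaks than 96% and 98.7% of all genes, and than 12 of the 15 in replicate 1 and 14 in replicate 2. The exceptions in replicate 1 were the recombinase genes Rag1 (76) and Rag2 (94), which are adjacent, and Hmgb1 (64), a DNA-bending cofactor. In replicate 2 Rag1 had 19 and Rag2 had 20, below the 31 of Dntt, and Hmgb1 had 37. The order of Dntt and the Rag genes thus reversed between the animals.

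The other family X polymerases had fewer sites and higher promoter peaks than Dntt. Polm and Poll, which fill gaps during end joining, had 22 peaks each in replicate 1 and 5 and 13 in replicate 2. Polb, of base excision repair, had 7 and 3. The densest promoter peak was 8.82 and 6.18 at Polm, 5.47 and 5.21 at Poll and 16.6 and 4.15 at Polb, against 3 and 1.7 at Dntt. In both libraries Dntt had the most sites and the lowest promoter of the 4 genes.

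**Figure D5:**
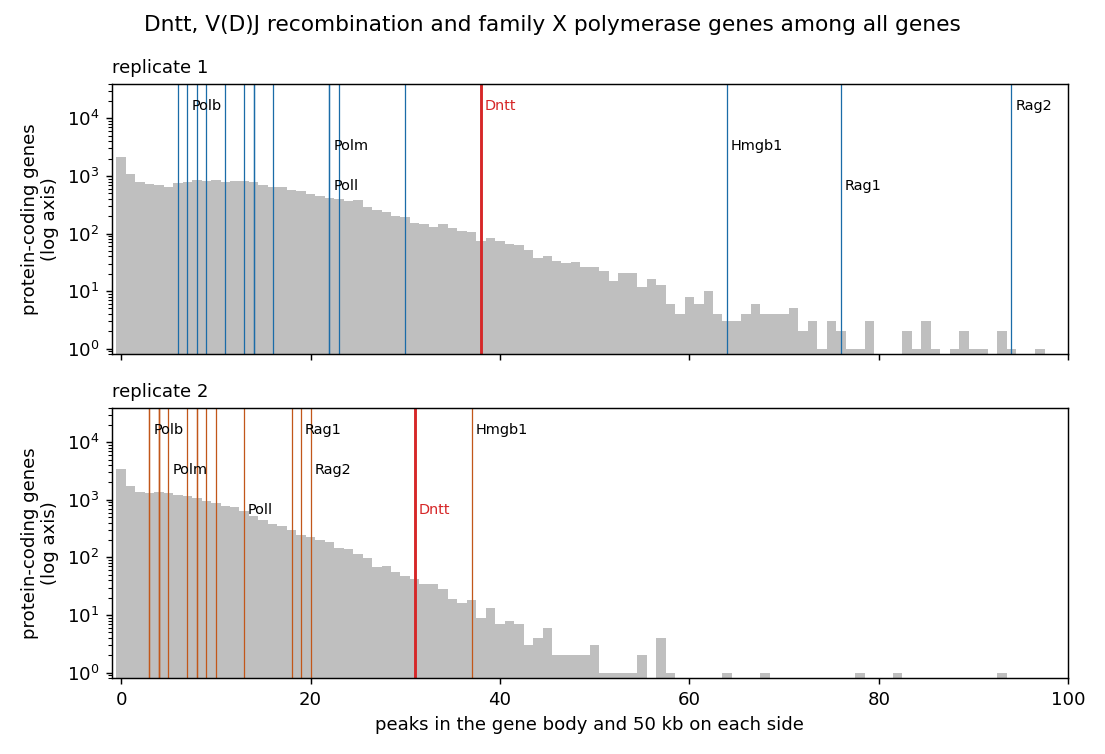
Number of protein-coding genes (log axis) by peaks in the body and 50 kb flanks, 1 panel per library, with lines at Dntt (red) and at V(D)J and family X genes. Dntt stands at 38 and 31 peaks, to the right of Polm, Poll and Polb in both panels, and Rag1 and Rag2 lie to its right in replicate 1 and to its left in replicate 2.

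Genes that share a window with Dntt, such as Blnk and Opalin, were left out of the last comparison. Of the rest, the 5 most like Dntt by peak number and summed density over the 2 libraries, 4 values in all, were Galnt2, Cdk17, Ptpre, Padi2 and Tmprss4. Their scaled distances ran from 0.108 to 0.147. Galnt2, the closest, had 37 peaks in replicate 1 and 28 in replicate 2, and a summed density of 87.6 and 56.7, against 92.5 and 55.1 for Dntt.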

How the data were processed

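DNase-seq files of 2 thymus libraries on mm10, per the labels, were used as deposited. Per the deposited notes, each library was processed from its own filtered alignment. No source used here gives the aligner, callers or read depth, so intervals on densities were not computed. The deposited signal density per peak has no stated scaling. The deposited false discovery rates (q-values) are listed only below 0.05. Footprints carry the same deposited number in every line, so only positions were used. The longer deposited peak list was the main list. Overlap needed 1 bp. A promoter peak touched the 1 kb on either side of a gene start, and sites were located by midpoint. Gene models were protein-coding genes of GENCODE M21, and sequences came from the GRCm38 reference and the RefSeq promoter table. Motifs were matched as letters on both strands. Sites described were the promoter, the 5 densest by mean rank and the 3 with most footprints; genes were the window's genes, the V(D)J and family X lists and the 5 most alike. Members and lists were chosen with earlier results of these data known. Counting was tested on simulated data. Python 3.11.15, numpy 2.4.6, pandas 2.3.3, pysam 0.24.0, samtools 1.23.1, bedtools 2.31.1 and matplotlib 3.10.9 were used.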

Additional observations from a re-analysis of the deposited data

How the results depend on the processing

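Restricting the window to the gene body alone moved 4 values beyond the spread between the animals, by its smaller extent: the mean peak count fell from 34.5 to 11, shared sites from 23 to 7, bases below a false discovery rate of 0.05 from 13687.0 to 5471.5 and footprints from 102.0 to 33.5. The other 24 values recomputed stayed within 1 SD or 1.5 times: 10 kb flanks gave 24.5 peaks, the shorter lists 31, lists of equal length 30.5, and, chosen after seeing the data, leaving out neighbouring gene bodies 28.5. Leaving out either replicate gave 31 to 38 peaks, 11931 to 15443 bases, 89 to 115 footprints and a promoter density of 1.7 to 2.41. These values are among the 24, but with 2 libraries each lies within 1 SD of their mean whatever the data. They therefore give the range and say nothing on stability. No paired analysis was possible because there was 1 group. With 2 animals, unknown read depth and unstated scaling, differences between the libraries cannot be assigned to animal or preparation.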

Other observations

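The shorter deposited lists were not strict subsets of the longer ones. In replicate 1, 1033 of 90155 peaks of the shorter list (1.15%) overlapped no peak of the longer list, and in replicate 2 this held for 639 of 47784 (1.34%). The Dntt window held 3 of these, all in replicate 1, at -8.86 kb (density 0.439), -2.94 kb (0.487) and +9.72 kb (1.27). The last, chr19:41038961-41039035, lies across the end of exon 3.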
